A study of Macaca mulatta with 24 samples.

Results

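A set of 10 genes that mark tissue macrophages and their monocyte precursors was followed through the ileum of irradiated Rhesus macaques. Of the symbols looked for (CD163, CD68, CD14, CSF1R, MRC1, C1QA, C1QB, C1QC, F13A1 and MARCO), 6 label a probe in the table used here, of 16183 symbols there, and their 7 probes were taken from the 43603 on the array. C1QC has 2 probes and C1QA, CD14, CSF1R, F13A1 and MARCO have 1 each. CD163, CD68, MRC1 and C1QB label no probe in that table. Of the 7 probes, 6 were well above background on all 24 arrays and were tested, while the MARCO probe was above background on 7 of 24 arrays and is given as a description only.

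Ileum segments came from 24 young adult male macaques, each read on 1 single-color array. Sham-irradiated controls (4 animals, labelled day 4 and shared by every comparison with controls) received no dose. Irradiated animals received total-body irradiation (TBI) of 6.7 or 7.4 Gy from a cobalt-60 source, and at each dose 4 were sampled on day 4, 4 on day 7 and 2 on day 12. The segments were whole gut wall, a mixture of cell types, and fewer cells of a type cannot be told apart from less RNA per cell.

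Macrophages of the gut wall engulf dead cells and bacteria that cross the epithelium, and in the adult intestine they are replaced from circulating monocytes that settle and mature under signals through the receptor CSF1R. C1q, the recognition molecule of the classical complement pathway, is built from the products of C1QA, C1QB and C1QC, which neighbour each other in the genome and are made in tissues largely by macrophages. CD14 is a co-receptor for bacterial endotoxin carried by monocytes and macrophages, F13A1 encodes the catalytic A subunit of coagulation factor XIII, made by resident macrophages and by megakaryocytes, and MARCO, MRC1 and CD163 are scavenger receptors.

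A value below is a log2 signal, the log2 intensity of a probe minus the 75th percentile of its array, so that 0 means as bright as that percentile and a difference of 1 is a doubling. Signals of different probes are not compared in size. Differences were tested with limma over all 36106 tested probes, and altered probes are those whose p, adjusted by Benjamini-Hochberg, was under 0.05 and whose change was 2-fold or more. Of the 6 tested macrophage probes, 1 was altered on day 4 after 6.7 Gy and 2 on day 4 after 7.4 Gy, all of them higher, against 0.595% and 1.60% of all tested probes called higher in the same comparisons. None was altered against the controls on day 7 after 6.7 Gy (0.235% of all tested probes called in either direction), on day 7 after 7.4 Gy (0.565%), on day 12 after 6.7 Gy (0.108%) or on day 12 after 7.4 Gy (0.0443%). In those 4 comparisons 1, 2, 2 and 1 of the 6 probes had an unadjusted limma p under 0.05 at any fold change, beside 9.36%, 13.4%, 8.98% and 8.12% of all tested probes. The methods' t-test with at least 2-fold called 0 of the 6 in each, beside 1.02%, 1.38%, 1.02% and 1.06% of all tested probes without adjustment and 0.00554%, 0.00%, 0.00% and 0.00% with it. On day 4 that test called 1 and 2 of the 6 without adjustment, beside 1.83% and 3.00% of all tested probes, and 0 and 0 with it, beside 0.00% and 0.346%. The median change of the 6 probes was 0.18 and 0.61 on day 4 after 6.7 and 7.4 Gy, -0.19 and -0.07 on day 7, and 0.34 and 0.09 on day 12, and the medians of all tested probes lay between -0.10 and 0.06.

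**Figure D1:**
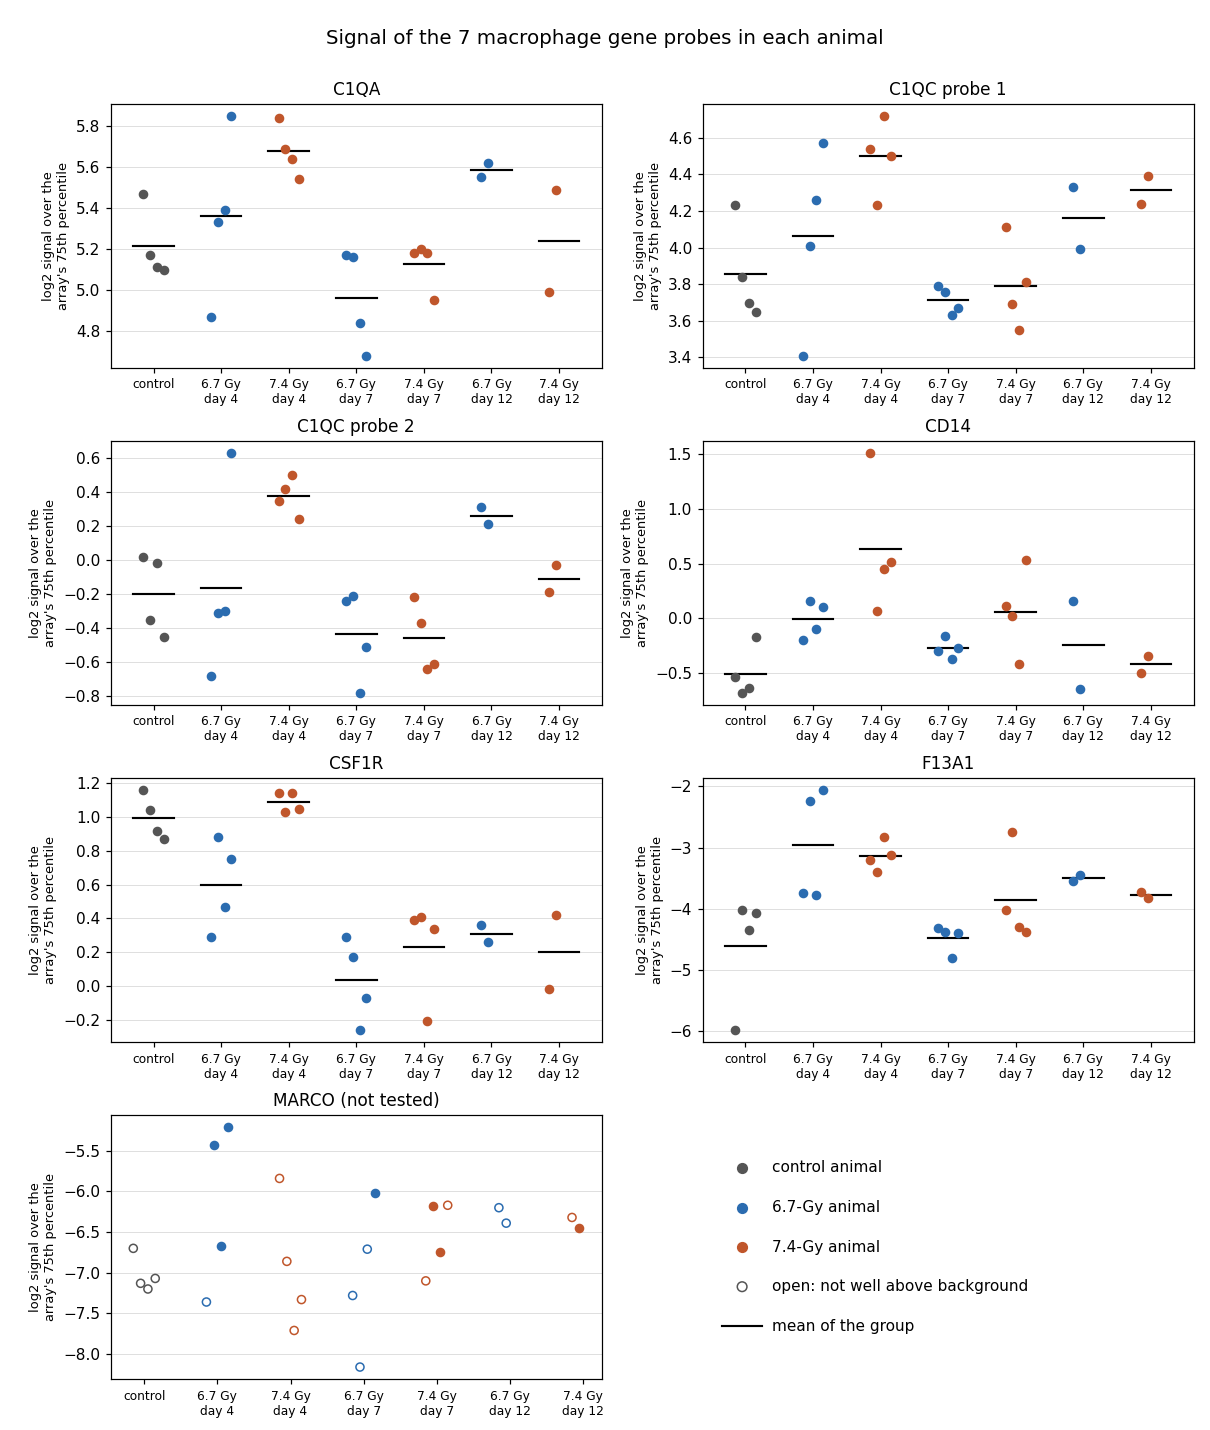
Log2 signal of each of the 7 macrophage gene probes (y axes, each panel on its own scale) in every animal of the 7 groups (x axes), with bars at the group means, except for MARCO, which was above background in few animals. F13A1 sat above all 4 controls in all 8 day 4 animals, and CSF1R sat below all 4 controls in all 8 day 7 and all 4 day 12 animals.

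One control animal, replicate 1, stood apart in the make-up of its tissue. The summed level of its 4 tested smooth muscle markers was 101 (linear, in units of the 75th percentile), against 451, 495 and 504 in the other controls and 286 to 559 in the irradiated animals. Where leaving out this animal ended or made a call against the controls on day 4, the value without it is given. Arrays sat in 4 positions on each of 6 slides, and position moved with the groups: all 4 controls were in position 1, all 7.4-Gy day 4 arrays in position 2, and every day 7 and day 12 array in positions 3 and 4. All day 4 arrays were in positions 1 and 2. For day 7 and day 12, against the controls and against day 4 alike, group and array position cannot be told apart, and differences within a slide do not remove position. The macrophage identity of the signal was set against a separate list of 15 macrophage markers, of which 12 were tested, and against 15 lists for other cell types.

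F13A1 rose on day 4 after both doses and was the only one of the 6 tested probes altered at both. Its log2 signal was -5.98, -4.02, -4.34 and -4.07 in the controls. On day 4 it was -3.74, -2.24, -3.77 and -2.06 after the 6.7-Gy dose and -3.20, -3.40, -2.83 and -3.12 after the 7.4-Gy dose. All 8 irradiated animals lay above all 4 controls, as they did for 2.54% of all tested probes. The 6.7-Gy animals split into a dimmer pair, replicates 1 and 3, and a brighter pair, replicates 2 and 4, while the 7.4-Gy animals lay close together. The increase was 1.65 on the log2 scale, or 3.14-fold, after 6.7 Gy (SE 0.43, 95% interval 0.75 to 2.55, adjusted p = 0.046) and 1.46, or 2.76-fold, after 7.4 Gy (SE 0.43, 95% interval 0.56 to 2.37, adjusted p = 0.047). With both doses pooled it was 1.56 (SE 0.37, adjusted p = 0.016), and F13A1 was then the 1 probe of 6 altered, where 1.30% of all tested probes were called higher.

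The size of the F13A1 rise depended on control replicate 1, the lowest animal of the series. Without it the increase was 1.19 after 6.7 Gy (adjusted p = 0.12), 1.0 after 7.4 Gy (adjusted p = 0.17) and 1.1 for both doses (adjusted p = 0.080), and the probe was no longer altered in any of the 3. The calls were close to the threshold: leaving out any 1 of control replicate 3 and 6.7-Gy replicates 2 and 4 also ended the 6.7-Gy call (adjusted p = 0.077, 0.096 and 0.13), and leaving out control replicate 3 or any 1 of the 4 irradiated animals ended the 7.4-Gy call (adjusted p = 0.059 to 0.11), with changes of 1.35 to 1.74 in these fits. F13A1 was also a dim probe, with intensities of 17.5 to 73.1 in the controls against 83.7 to 304 on day 4, and with the normexp background correction the changes were 0.86, 0.64 and 0.75. Array position as a block ended the calls at both doses and pooled (1.61, 1.39 and 1.5, adjusted p = 0.16, 0.38 and 0.21), and slide as a block ended those at the single doses (1.53 and 1.23, adjusted p = 0.082 and 0.10). Within the 2 slides that held both groups, day 4 exceeded control by 1.96 and 2.21 after 6.7 Gy and by 0.67 and 1.14 after 7.4 Gy. The 1.96 pair held 6.7-Gy replicate 4 and the 2.21 pair held control replicate 1, animals whose removal each ended the 6.7-Gy call. Every pair also differed in array position.

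After day 4 most animals lay nearer to the controls in F13A1. On day 7 F13A1 stood at -4.31, -4.38, -4.81 and -4.40 after 6.7 Gy, with a difference from the controls of 0.13 (SE 0.43, adjusted p = 0.97). After 7.4 Gy it stood at -4.02, -2.75, -4.29 and -4.38, with replicate 2 within the day 4 range (difference 0.74, adjusted p = 0.47). On day 12 it was -3.55 and -3.45 after 6.7 Gy and -3.72 and -3.82 after 7.4 Gy, all 4 above the controls, as for 3.07% of all tested probes, but short of the test (1.11, adjusted p = 0.55, and 0.84, adjusted p = 0.76). From day 4 to day 7, over both doses and with array position changing too, the signal fell by 1.12 on the log2 scale, or 2.17-fold (SE 0.31, adjusted p = 0.021), and this was the 1 of 6 probes altered between these days, against 0.410% of all tested probes called lower. The difference was negative on all 6 slides, from -2.32 to -0.07, and without 6.7-Gy day 4 replicate 4 it was -0.97 (adjusted p = 0.040), under 2-fold. With the normexp correction it was -0.54 (adjusted p = 0.031), which ended the call.

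F13A1 is also a platelet and megakaryocyte gene, and of the defining platelet markers PPBP was well above background on 2 of 24 arrays, TUBB1 on 1 and PF4 on 15. The summed level of the 4 tested platelet markers was 1.17 to 1.67 in the controls and 0.744 to 1.42 on day 4. On day 12 it was above all controls after 6.7 Gy (1.74 to 1.75) and overlapped them after 7.4 Gy (0.867 to 1.33). Other genes of the tissue moved with F13A1 on day 4, among them genes of the lymphatics, stroma, nerves and epithelium. The summed level of 5 lymphatic endothelial markers was 2.88 to 4.20 in the controls and 6.41 to 10.1 on day 4, without overlap and lowest in control replicate 1. On day 12 it was above all controls too, at 4.84 to 5.34 after 6.7 Gy and 4.27 to 5.06 after 7.4 Gy. The summed level of 6 fibroblast markers was 38.1 to 67.7 in the controls and, on day 4, 60.2 to 96.9 after 6.7 Gy and 79.7 to 145 after 7.4 Gy. For 5 markers of enteric neurons and glia it was 1.26 to 2.35 in the controls and 2.87 to 3.53 after 7.4 Gy, without overlap, while after 6.7 Gy it was 1.78 to 5.89. Of the brighter 6.7-Gy pair in F13A1, replicate 2 had the highest lymphatic and neuron sums of the series (10.1 and 5.89). Replicate 4 had the lowest enterocyte sum (78.4) and the highest monocyte sum (13.1) of the series. The enterocyte gene VIL1, which encodes villin of the brush border, fell by 1.32 after 6.7 Gy (SE 0.19, adjusted p = 0.0011) and its change after 7.4 Gy was -1.27 (adjusted p = 8.5e-04), while the sums of 7 enterocyte markers overlapped the controls. The keratin gene KRT20 fell by 1.05 after 6.7 Gy (adjusted p = 0.015), and VWF of blood endothelium rose by 1.12 after 7.4 Gy (adjusted p = 0.041). Without control replicate 1 the calls of KRT20 (-0.85) and VWF (0.85) were lost. The B cell sum was below all controls on day 4 after 7.4 Gy (0.561 to 0.914 against 0.921 to 2.70). The monocyte sum after 7.4 Gy and the dendritic sums at both doses, given with CD14 and CSF1R, were apart from the controls on day 4 as well, and the remaining sums of the 16 cell type lists overlapped them. The plasma cell sums, 25.2 to 29.1 and 19.2 to 28.9, did so only through control replicate 1 (27.5, with 39.9 to 83.5 in the other controls). Their part in the F13A1 result was not tested. Among 14180 genes, those most like F13A1 over the 24 arrays were DARC, an endothelial and red cell chemokine receptor (Pearson r = 0.82), NDN (r = 0.80) and the hyaluronan receptor LYVE1 (r = 0.80), a description over arrays that share the group differences. With the group means removed these values were 0.77, 0.65 and 0.55.

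CD14 rose on day 4 after the higher dose. Its log2 signal was -0.54, -0.68, -0.64 and -0.17 in the controls, -0.20, 0.16, -0.10 and 0.10 on day 4 after 6.7 Gy and 1.51, 0.07, 0.45 and 0.51 on day 4 after 7.4 Gy. After 7.4 Gy every animal lay above every control, as for 7.84% of all tested probes, and 1 of them, replicate 1, lay far above the other 3. The increase after 7.4 Gy was 1.14 on the log2 scale, or 2.20-fold (SE 0.24, 95% interval 0.63 to 1.65, adjusted p = 0.011). Without that animal it was 0.85 (adjusted p = 0.037), under 2-fold. The change after 6.7 Gy was 0.49 (SE 0.24, 95% interval -0.02 to 1.0, adjusted p = 0.24), and the doses differed by 0.65 (SE 0.24, 95% interval 0.14 to 1.16, adjusted p = 0.88).

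Within slides the 7.4-Gy day 4 animal exceeded its control by 0.24 on one slide and 2.15 on the other. The 2.15 was that of replicate 1, and each pair also differed in array position. With array position as a block the increase was 1.12 with adjusted p = 0.23. On day 7 CD14 was -0.30, -0.16, -0.37 and -0.27 after 6.7 Gy and 0.11, 0.02, -0.42 and 0.53 after 7.4 Gy, with changes of 0.23 (adjusted p = 0.86) and 0.57 (adjusted p = 0.32). On day 12 the animals had 0.16 and -0.65 after 6.7 Gy and -0.50 and -0.34 after 7.4 Gy, of which 1 animal lay above the controls, with changes of 0.26 (adjusted p = 0.82) and 0.08 (adjusted p = 0.98). Over both doses CD14 was lower on day 12 than on day 4, as 6.80% of all tested probes were at an adjusted p under 0.05 and any fold (log2 difference -0.64, SE 0.21, adjusted p = 0.043), below the 2-fold limit. Leaving out 1 animal gave -0.84 to -0.44 with adjusted p of 0.019 to 0.22, the highest without 6.7-Gy day 12 replicate 2. The day 7 minus day 4 difference was -0.42 (SE 0.17, adjusted p = 0.11).

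Genes that act with CD14 in sensing endotoxin were followed too. Of a list of 14, among them the endotoxin receptor TLR4, its partner LY96 and the adaptor MYD88, 11 were tested and none passed in any of the 6 comparisons with the controls, a count near the background of at most 2.69% of all genes. The median change of the list was 0.03 on day 4 after 7.4 Gy, beside -0.05 over all 14186 genes tested. TLR4 changed there by 0.69 (SE 0.28, adjusted p = 0.14), LY96 by 0.53 (SE 0.16, adjusted p = 0.056) and MYD88 by -0.54 (SE 0.20, adjusted p = 0.10). Of the monocyte markers 6 were tested, and their summed level was 3.13 to 3.93 in the controls and 5.09 to 5.83 on day 4 after 7.4 Gy, without overlap, and 3.65 to 13.1 after 6.7 Gy. The defining markers CCR2 and CD300E were above background on 0 of 24 arrays, and VCAN, which encodes a matrix proteoglycan made by stroma too, was the 1 of 6 altered after 7.4 Gy (1.30, SE 0.24, adjusted p = 0.0046), beside 2.69% of all genes. Their part in the CD14 result was not tested.

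C1q transcripts were brighter on day 4 after 7.4 Gy than in the controls, but none of the 3 probes passed the test. C1QA had a log2 signal of 5.47, 5.17, 5.11 and 5.10 in the controls and of 5.84, 5.69, 5.64 and 5.54 on day 4 after 7.4 Gy. The brighter C1QC probe, called probe 1, had 4.23, 3.84, 3.70 and 3.65 in the controls and 4.54, 4.23, 4.72 and 4.50 after 7.4 Gy, and the dimmer probe 2 had 0.02, -0.35, -0.02 and -0.45 against 0.35, 0.42, 0.50 and 0.24. For C1QA and probe 2 all 4 irradiated animals exceeded all 4 controls, as was so for 7.84% of all tested probes, and for probe 1 the lowest of them tied with the highest control. The differences were 0.47 for C1QA (SE 0.17, 95% interval 0.11 to 0.82, adjusted p = 0.10), 0.64 for probe 1 (SE 0.19, 95% interval 0.24 to 1.05, adjusted p = 0.052) and 0.57 for probe 2 (SE 0.21, 95% interval 0.14 to 1.0, adjusted p = 0.095), or 1.38-, 1.56- and 1.49-fold. Without control replicate 1 the difference of C1QC probe 1 was 0.77 with adjusted p = 0.047, still under 2-fold. With array position as a block the 3 differences turned to -0.05, -0.06 and -0.09.

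After 6.7 Gy the C1q signal on day 4 varied more between animals and straddled the controls. C1QA stood at 4.87, 5.33, 5.39 and 5.85, C1QC probe 1 at 3.41, 4.01, 4.26 and 4.57 and probe 2 at -0.68, -0.31, -0.30 and 0.63. In all 3 probes replicate 1 was the lowest and replicate 4 the highest of the group. The differences from the controls were 0.15, 0.21 and 0.03 (adjusted p = 0.61, 0.52 and 0.93), and those between the doses on day 4 were 0.32, 0.44 and 0.54 (adjusted p = 0.88 for each).

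On day 7 C1q lay at or slightly below the controls. C1QA was 5.17, 5.16, 4.84 and 4.68 after 6.7 Gy and 5.18, 5.20, 5.18 and 4.95 after 7.4 Gy, and the 3 probes differed from the controls by -0.26 to -0.07 at the single doses, with adjusted p of 0.61 to 0.91. On day 12 C1QA was 5.55 and 5.62 after 6.7 Gy and 4.99 and 5.49 after 7.4 Gy, and the 3 differences from the controls were 0.37, 0.31 and 0.46 after 6.7 Gy (adjusted p = 0.63, 0.73 and 0.62) and 0.03, 0.46 and 0.09 after 7.4 Gy (adjusted p = 0.99, 0.66 and 0.97). Only 2 animals stood behind each of these day 12 means.

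The change of C1q from day 4 to day 7 did pass the adjusted test, at less than 2-fold, between days that also differ in array position. Over both doses C1QA was lower on day 7 by a log2 difference of -0.47 (SE 0.12, 95% interval -0.73 to -0.22, adjusted p = 0.015), C1QC probe 1 by -0.53 (SE 0.14, adjusted p = 0.016) and probe 2 by -0.55 (SE 0.15, adjusted p = 0.018). At an adjusted p under 0.05 with no fold limit, a criterion chosen after the data were seen, 5 of the 6 tested macrophage probes were lower on day 7 than on day 4 and 0 were higher, against 5.56% of all tested probes called lower. The exception was CD14, and under the methods' t-test with adjustment C1QC probe 2 did not pass either (adjusted p = 0.066). Within slides C1QA and C1QC probe 2 were lower on day 7 on 6 of 6 slides and C1QC probe 1 on 5 of 6. From day 7 to day 12 the 3 probes differed by 0.37, 0.49 and 0.52 (adjusted p = 0.27, 0.20 and 0.20), and none of the 6 macrophage probes passed the test in that comparison at any fold, where 0.288% of all tested probes passed. At an unadjusted p under 0.05 there were 3 of the 6, beside 14.4% of all tested probes.

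**Figure D2:**
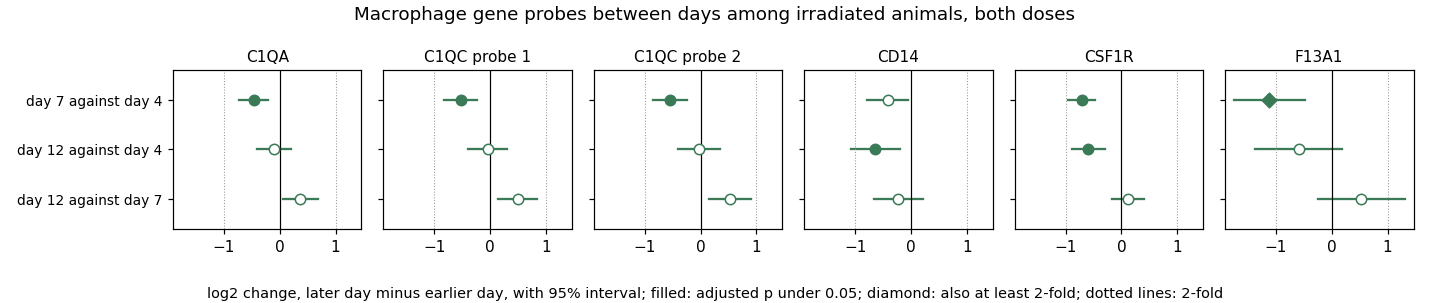
Log2 change between days among irradiated animals for the 6 tested probes (x axes, later day minus earlier day, both doses pooled) with 95% intervals, for the 3 pairs of days (y axis). Filled points have an adjusted p under 0.05 and the diamond is also at least 2-fold. On day 7 all 6 probes lay below day 4, from -0.42 for CD14 to -1.12 for F13A1. At any fold, 5 of them, 3 being C1q probes, passed the adjusted test, beside 5.56% of all tested probes called lower. That criterion was chosen after the data were seen, and the days also differ in array position.

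The C1q probes moved together across animals. Over the 24 arrays C1QA correlated with C1QC probe 1 at r = 0.81 and with probe 2 at r = 0.89, and the C1QC probes correlated with each other at r = 0.84. With the group means removed these values were 0.69, 0.79 and 0.74, so that the 3 probes tended to be high or low in the same animals of a group. Correlations of C1QA with CD14, CSF1R and F13A1 were 0.44, 0.61 and 0.50, and 0.14, 0.58 and 0.19 with group means removed. These describe arrays that share scaling and tissue make-up and carry no test.

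Partners of C1q in the classical pathway were followed by a list of 16 genes, 9 of them tested. On day 4 after 7.4 Gy 1 was altered, beside 2.69% of all genes tested: CD93, a receptor of myeloid and endothelial cells once taken for a C1q receptor, rose by 1.03 (SE 0.23, adjusted p = 0.013), from a mean of -5.25 ± 0.22 (SD, n = 4) in the controls to -4.22 ± 0.14 (SD, n = 4). The list had a median change of 0.43 on day 4 after 6.7 Gy and 0.41 after 7.4 Gy, beside -0.07 and -0.05 over all genes. Below the 2-fold limit, C3AR1, the receptor for the C3a fragment, changed by 0.88 (SE 0.21, adjusted p = 0.018) and SERPING1, the C1 inhibitor, by 0.92 (SE 0.27, adjusted p = 0.045) after 7.4 Gy. These 2 were picked after their values were seen, and without control replicate 1 C3AR1 reached 2-fold (1.02, adjusted p = 0.017) while SERPING1 did not pass (0.70, adjusted p = 0.16).

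CSF1R, the receptor through which macrophages receive their survival signal, was lower than in the controls after day 4. Its log2 signal was 1.16, 1.04, 0.92 and 0.87 in the controls. On day 4 it was 0.29, 0.88, 0.47 and 0.75 after 6.7-Gy TBI, with 1 animal inside the control range, and 1.14, 1.03, 1.14 and 1.05 after the 7.4-Gy dose, all within it. On day 7 it was 0.29, 0.17, -0.26 and -0.07 after 6.7 Gy and 0.39, 0.41, -0.21 and 0.34 after 7.4 Gy. On day 12 it was 0.36 and 0.26 after 6.7 Gy and -0.02 and 0.42 after 7.4 Gy. All 8 day 7 animals and all 4 day 12 animals lay below all 4 controls, as they did for 1.52% and 3.00% of all tested probes.

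The day 7 differences of CSF1R passed the adjusted test but stayed under 2-fold, so the probe was not called altered. They were -0.97, or 1.95-fold lower, after 6.7 Gy (SE 0.16, 95% interval -1.30 to -0.63, adjusted p = 0.0086) and -0.77, or 1.70-fold lower, after 7.4 Gy (SE 0.16, 95% interval -1.10 to -0.43, adjusted p = 0.021). CSF1R was the 1 probe of 6 with an adjusted p under 0.05 in each, against 0.355% and 0.717% of all tested probes called lower at any fold. For both doses together the difference was -0.87 (SE 0.14, adjusted p = 0.0022, background 0.961%) on day 7 and -0.74 (SE 0.16, adjusted p = 0.041, background 0.402%) on day 12. The methods' t-test with adjustment lost the single-dose passes on day 7 (adjusted p = 0.15 and 0.24) and the pooled pass on day 12 (adjusted p = 0.21). It kept the pooled pass on day 7, whose adjusted p was at most 0.032 under the alternatives that could be fitted. Array position as a block was not among them, as position and group cannot be told apart there. The single doses on day 12 gave -0.69 (SE 0.20, adjusted p = 0.23) and -0.80 (SE 0.20, adjusted p = 0.14). Leaving out any 1 of the 12 animals kept the pooled day 7 difference between -0.91 and -0.79 with adjusted p of at most 0.016. For 7.4 Gy alone the difference was -0.62 without day 7 replicate 3, the lowest animal, and adjusted p reached 0.082 when single animals were left out, the highest without control replicate 1. For 6.7 Gy the fold change reached 2 without control replicate 4 (-1.01), day 7 replicate 1 (-1.05) or day 7 replicate 2 (-1.01). The pooled day 12 difference ranged from -0.85 to -0.63 when single animals were left out, with adjusted p of up to 0.21. On the slides that held both groups the day 7 minus control difference was -1.18 to -0.87 on 4 of 4 slides after 6.7 Gy and -1.38 and -0.70 on 2 of 2 after 7.4 Gy. The -1.38 pair held day 7 replicate 3, the lowest of its group, and control replicate 1, the highest control. Every pair also differed in array position.

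On day 4 the doses differed in CSF1R without overlap, with 0.29 to 0.88 after 6.7 Gy and 1.03 to 1.14 after 7.4 Gy, a separation in this direction that 1.61% of all tested probes had. The difference was 0.49 (SE 0.16, 95% interval 0.16 to 0.83, unadjusted p = 0.0059), but the adjusted p was 0.88 and 0.00% of all tested probes were altered between the doses on day 4. Of the 6 macrophage probes 4 had an unadjusted p under 0.05 in this comparison, beside 5.54% of all tested probes, and 0 passed the adjustment. From day 4 to day 7 over both doses CSF1R was lower by a difference of -0.71 (SE 0.11, adjusted p = 7.0e-04) and from day 4 to day 12 by -0.59 (SE 0.14, adjusted p = 0.0087). The day 12 difference did not pass without 7.4-Gy day 12 replicate 1 (-0.48, adjusted p = 0.074) or under the methods' t-test with adjustment (adjusted p = 0.065).

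**Figure D3:**
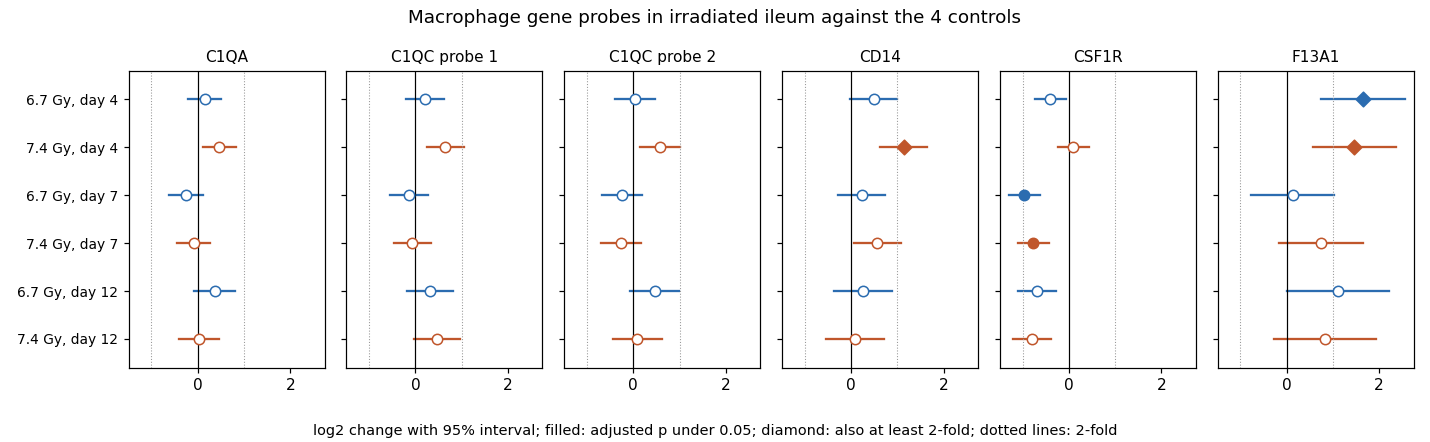
Log2 change against the 4 controls (x axes) with 95% intervals for the 6 tested probes, in the 6 irradiated groups (y axis). Filled points have an adjusted p under 0.05, diamonds are also at least 2-fold, and dotted lines mark 2-fold. F13A1 on day 4 at both doses and CD14 on day 4 after 7.4 Gy are diamonds, and CSF1R on day 7 is filled at -0.97 and -0.77.

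The ligands of CSF1R and factors of its lineage were also followed. A list of 14 genes, with the ligands CSF1 and IL34 and the transcription factors IRF8, KLF4 and PPARG, had 8 tested members, and 0 were altered in any of the 6 comparisons with the controls, a count near the background of at most 2.69% of all genes. CSF1 changed by -0.24 (SE 0.14, adjusted p = 0.31) and IL34 by 0.09 (SE 0.27, adjusted p = 0.88) on day 4 after 7.4 Gy. The median of the list was -0.03 on day 7 after 6.7 Gy and 0.08 after 7.4 Gy, beside 0.00 and -0.02 over all genes. The genes most like CSF1R over the 24 arrays were the inflammasome sensor NLRP3 (r = 0.87), TNFAIP8L2 (r = 0.86) and APBB1IP (r = 0.86), and with group means removed 0.77, 0.73 and 0.55. This gene was added to the search for like patterns after its values were seen.

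Summed levels of some other leukocytes' markers stood below the controls beside CSF1R. The monocyte, neutrophil and mast cell sums overlapped the controls in every day 7 and day 12 group. Of 7 tested markers of dendritic cells, another myeloid lineage, CLEC9A and FLT3 were well above background on all 4 control arrays but each on 1 of 4 day 7 arrays at either dose. They passed the filter through groups in which they were bright, so no size is given for them. The other 5 were above background on every day 7 and day 12 array, and their summed level, a selection made after the data were seen, was 0.757 to 1.03 in the controls. It was 0.509 to 0.726 and 0.434 to 0.617 on day 4 after 6.7 and 7.4 Gy, 0.446 to 0.533 and 0.242 to 0.357 on day 7, and 0.242 to 0.329 and 0.258 to 0.451 on day 12, below all controls in each group, while CSF1R on day 4 after 7.4 Gy lay within the control range. The sum of 6 T cell markers was 8.35 to 13.3 in the controls and 5.92 to 7.30 and 4.71 to 6.70 on day 7, without overlap. The B cell sum overlapped the controls on day 7 at both doses. The plasma cell sum on day 7 (23.9 to 29.9 and 13.9 to 28.5) overlapped them only through control replicate 1 (27.5, with 39.9 to 83.5 in the others). On day 12 the T cell sum was below all controls after 6.7 Gy (6.72 to 7.34), the plasma cell sum was so at both doses (25.1 to 26.8 against 27.5 to 83.5) and the B cell sum after 7.4 Gy (0.788 to 0.902 against 0.921 to 2.70). Outside the leukocytes, on day 12 the blood endothelium sum was below all controls after 7.4 Gy (1.44 to 1.73 against 1.89 to 3.26). The lymphatic sum was above all controls on day 12 at both doses. The part of these cells in the CSF1R result was not tested.

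MARCO was dim everywhere. It was well above background in 0 of 4 controls, 3 of 4 animals on day 4 after 6.7 Gy, 0 of 4 on day 4 after 7.4 Gy, 1 of 4 and 2 of 4 on day 7 after 6.7 and 7.4 Gy, and 0 of 2 and 1 of 2 on day 12. Its log2 signal on day 4 after 6.7 Gy was -7.36, -5.43, -6.67 and -5.21, with replicates 2 and 4 the brightest of the series, the same animals that had the highest F13A1 signal of the group. The control signals were -6.7, -7.13, -7.20 and -7.07. Replicate 1 of the 6.7-Gy day 4 group lay below all 4 controls, and no fold or test is given.

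MRC1, the mannose receptor CD206, labels no probe, but 3 probes under the older symbol MRC1L1 carry an accession that RefSeq assigns to MRC1. They were not counted among the 7. The brightest of them had a log2 signal of 1.04, 0.47, 0.64 and 0.55 in the controls and 1.39, 1.27, 1.33 and 1.05 on day 4 after 7.4 Gy, where all 4 exceeded all controls, as for 7.84% of all tested probes. Its difference was 0.58 (SE 0.20, adjusted p = 0.082), that of the second probe was also 0.58 (SE 0.20, adjusted p = 0.087) and that of the third 0.63 (SE 0.27, adjusted p = 0.16). From day 4 to day 7 over both doses the first probe was lower by a difference of -0.51 (SE 0.14, adjusted p = 0.024) and the second by -0.53 (SE 0.14, adjusted p = 0.020), in the direction of the C1q probes. The third MRC1L1 probe did not pass the adjusted test between these days. The differences of the first and second probes did not pass under the methods' t-test with adjustment (adjusted p = 0.061 and 0.054), nor did the first without 7.4-Gy day 7 replicate 3 (-0.42, adjusted p = 0.053). With group means removed the first and second MRC1L1 probes correlated with CSF1R over the 24 arrays at r = 0.74 and 0.80, and with F13A1 at 0.09 and 0.39.

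A wider macrophage list was followed beside these genes. Of 12 tested markers outside the 10 symbols, among them MSR1, VSIG4, MERTK, FOLR2 and SIGLEC1, none was altered in any of the 6 comparisons with the controls, where at most 2.69% of all genes were, so that the count is near the background. Their median change was 0.31 and 0.56 on day 4 after 6.7 and 7.4 Gy, -0.12 and 0.04 on day 7 and -0.05 and 0.05 on day 12, beside -0.07 and -0.05 over all genes on day 4. On day 4 after 7.4 Gy the scavenger receptor MSR1 changed by 0.55 (SE 0.25, adjusted p = 0.18), the complement receptor VSIG4 by 0.73 (SE 0.25, adjusted p = 0.087), the folate receptor FOLR2 by 0.56 (SE 0.16, adjusted p = 0.041) and the sialic acid receptor SIGLEC1 by -0.70 (SE 0.43, adjusted p = 0.34). The summed level of the 12 was 26.7 to 36.5 in the controls, 26.8 to 36.8 and 30.0 to 39.1 on day 4, 23.0 to 29.1 and 24.4 to 28.7 on day 7, and 25.9 to 28.6 on day 12, so that every group overlapped the controls.

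Some scavenger and clearance receptors rose on day 4. Of a list of 22, 15 were tested, 7 of them shared with the 12 macrophage markers. TREM2, a lipid receptor of phagocytes, rose by 1.08 after 6.7 Gy (SE 0.27, adjusted p = 0.041) and by 1.66 after 7.4 Gy (SE 0.27, adjusted p = 0.0017), from a mean of -1.07 ± 0.25 (SD, n = 4) in the controls to 0.01 ± 0.66 and 0.59 ± 0.34 (SD, n = 4 each). COLEC12, a scavenger receptor of endothelium and stroma, changed by 1.03 (SE 0.32, adjusted p = 0.080) and rose by 1.24 after 7.4 Gy (SE 0.32, adjusted p = 0.027), and LYVE1 rose by 1.06 after 6.7 Gy (SE 0.17, adjusted p = 0.0022) and changed by 0.94 after 7.4 Gy (SE 0.17, adjusted p = 0.0034). The list thus had 2 genes higher in each day 4 comparison, where 1.15% and 2.69% of all genes were called in either direction, and medians of 0.46 and 0.70. Without control replicate 1 the calls of TREM2 and LYVE1 after 6.7 Gy (1.02, adjusted p = 0.098, and 0.94, adjusted p = 0.011) and of COLEC12 after 7.4 Gy (0.97, adjusted p = 0.10) were lost, and that of TREM2 after 7.4 Gy held (1.60, adjusted p = 0.0084). On day 7 and day 12 none of the 15 was altered.

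**Figure D4:**
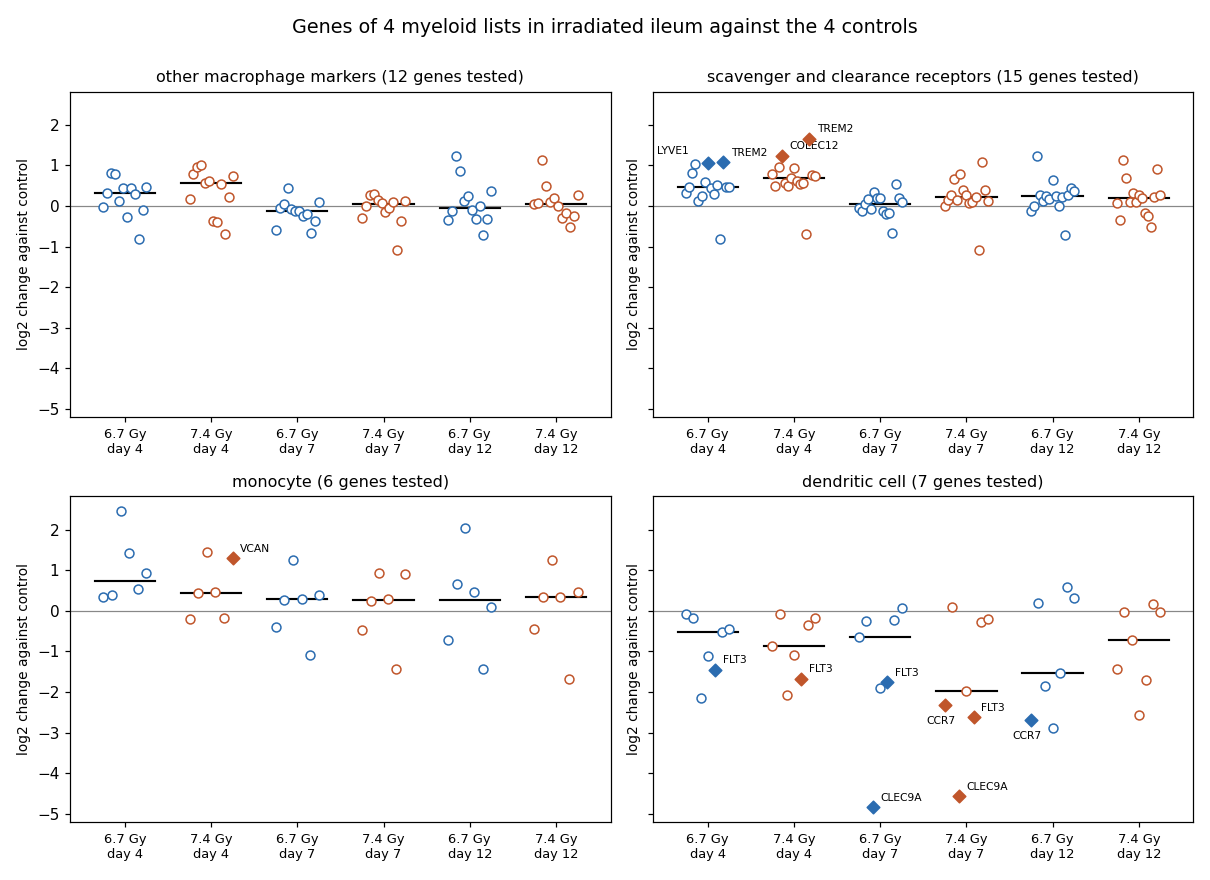
Log2 change against the 4 controls (y axes) of each tested gene of 4 lists, in the 6 irradiated groups (x axes). Diamonds with names are altered genes, open circles are not, and bars are medians. Macrophage markers centre at 0.56 on day 4 after 7.4 Gy with none altered. TREM2 (1.66) stands above COLEC12 (1.24), the other altered scavenger receptor, on day 4 after 7.4 Gy, and lies beside LYVE1 after 6.7 Gy (1.08 and 1.06). On day 7 CLEC9A and FLT3 were well above background on 1 of 4 arrays at either dose, so the size of their low values there is not a measured one.

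Among genes that draw monocytes into tissue, 9 of 15 were tested and the chemokine CCL2 alone was altered. The shares of all genes altered on day 4 were 1.15% after 6.7 Gy and 2.69% after 7.4 Gy, to be read beside this count and the 1 of 14 and 1 of 7 that follow. CCL2 rose on day 4 by 1.72 after 6.7 Gy (SE 0.30, adjusted p = 0.0045) and by 1.88 after 7.4 Gy (SE 0.30, adjusted p = 0.0013), from a mean of -2.40 ± 0.44 to -0.69 ± 0.58 and -0.53 ± 0.40 (SD, n = 4 each). On day 7 its changes were 0.43 (adjusted p = 0.72) and 0.71 (adjusted p = 0.30). In the list of Fc receptors and myeloid adaptors 14 of 21 were tested, and FCGR3, which encodes the low-affinity IgG receptor CD16, rose by 1.13 on day 4 after 7.4 Gy (SE 0.30, adjusted p = 0.030) and changed by 1.11 after 6.7 Gy (SE 0.30, adjusted p = 0.050). Of 10 substrates and partners of factor XIII 7 were tested, and FN1, the fibronectin gene, rose by 1.04 on day 4 after 7.4 Gy (SE 0.30, adjusted p = 0.044). Without control replicate 1 FN1 was no longer altered (0.77, adjusted p = 0.16), FCGR3 was altered after 6.7 Gy too (1.44, adjusted p = 0.011), and CCL2 was altered at both doses as before.

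Of 16 tested genes for lysosomes and phagosomes none was altered on day 4 or day 7, with list medians of -0.13 to 0.21. Of 11 tested genes for haem breakdown and iron handling, a list without the globin genes, 0 were altered in the 6 comparisons, with list medians of -0.23 to 0.17. Both counts are near the background of at most 2.69% of all genes. In the erythroid list 2 of 4 tested genes, HBB and HBA, were lower on day 4 at both doses, beside 1.15% and 2.69% of all genes altered: the log2 change of HBB was -6.11 after 6.7 Gy and -5.88 after 7.4 Gy (SE 0.62 each, adjusted p = 1.2e-05 and 1.7e-05), and that of HBA was -3.30 and -3.32 (SE 0.34 each, adjusted p = 1.2e-05 and 9.4e-06). Both were also lower on day 7, where CSF1R was lower too, beside 0.345% and 0.726% of all genes altered, with changes of -6.86 and -7.57 in HBB (adjusted p = 2.0e-05 and 3.6e-06) and of -3.29 and -3.43 in HBA (adjusted p = 8.4e-05 and 2.7e-05). On day 12 both were lower after 6.7 Gy, beside 0.162% of all genes (-4.63, adjusted p = 0.024, and -2.37, adjusted p = 0.026), and did not pass after 7.4 Gy (-3.06, adjusted p = 0.14, and -1.78, adjusted p = 0.12). On day 4 the others did not pass, with changes of -0.30 and -0.19 in the globin gene HBA1 (adjusted p = 0.13 and 0.34) and of -0.20 and -0.05 in AHSP (adjusted p = 0.32 and 0.83), and the summed level of the 4 overlapped, at 116 to 159 in the controls and 101 to 127 on day 4. The part of blood in the tissue in the macrophage gene results was not tested.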

How the data were processed

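RNA from ileum of 24 animals was hybridised to 24 Agilent 4x44K single-color Rhesus arrays. The deposited scanner files hold intensities that the authors extracted with Feature Extraction 11.0.1.1 (gProcessedSignal). The authors also deposited a log2 table, normalised to the 75th percentile and centred on each probe's median, which supplied gene symbols and served as an alternative. Here log2 intensity minus each array's 75th percentile (837.3 to 1330) was fitted with limma 3.58.1 in R 4.3.3, with 7 group means over 24 arrays, two-sided tests and Benjamini-Hochberg adjustment over 36106 of 43603 probes, leaving out probes that in no group stood well above background on all its arrays. Per array 72.7% to 88.1% of probes were well above background, and precision is limited by how many arrays there are. Normexp used median spot and background signals. Lists were counted by each gene's brightest tested probe, and genes were named from a list when altered, up to 4, by size of change. MYD88, TLR4, LY96, CSF1, IL34, MSR1, VSIG4, FOLR2, SIGLEC1, HBA1 and AHSP were named after their values were seen. The members and lists were chosen with earlier results of these data known. The fit was tested on simulated data. Each array came from a different animal. A day 12 result of the lysosome list is not reported here.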

Additional observations from a re-analysis of the deposited data

Results flagged for a closer look

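In groups of 4 animals, 3 animals lay far from the rest of their group in 1 probe, out of 45 groups examined over 9 probes, and chance gives about 1 in 20. These were C1QA on day 7 after 7.4 Gy, where replicate 4 had a log2 signal of 4.95, CSF1R in the same group, where replicate 3 had -0.21, and F13A1 in the controls, where replicate 1 had -5.98. That control animal also had the lowest smooth muscle sum of the series.

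Day 7 differed from day 4 over both doses, by the test of the difference itself, in C1QA (-0.47), C1QC probe 1 (-0.53), C1QC probe 2 (-0.55), CSF1R (-0.71), F13A1 (-1.12) and the first and second MRC1L1 probes (-0.51 and -0.53). Day 12 differed from day 4 in CD14 (-0.64) and CSF1R (-0.59). Only F13A1 among these reached 2-fold. The differences of C1QC probe 2, both MRC1L1 probes, CD14 and the day 12 difference of CSF1R did not pass under the methods' t-test with adjustment.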

How the results depend on the processing

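Counts of altered macrophage probes on day 4 depended on the processing. For 6.7 Gy, 7.4 Gy and both doses together they were 0, 1 and 0 with normexp, and 0, 0 and 0 with the methods' t-test after Benjamini-Hochberg adjustment, with only the compared groups fitted, or with array position as a block. With no filter on dim probes or slide as a block the single doses gave 0 and 1. From day 4 to day 7 normexp gave 0. With no fold limit, an alternative chosen after the data were seen, the counts were 1 on day 7 at each dose, 2 for pooled day 4, 1 for pooled day 7, 1 for pooled day 12, 5 for day 7 against day 4 and 2 for day 12 against day 4. Leaving out 1 animal gave 0 to 1 on day 4 after 6.7 Gy, 0 to 2 after 7.4 Gy, 0 to 1 on day 7 after 6.7 Gy, 0 to 1 for pooled day 4 and 0 to 1 for day 7 against day 4. The cause was not tested.

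Array position as a block turned the day 4 differences of C1QA, C1QC probe 1 and probe 2 to -0.11, -0.15 and -0.30 after 6.7 Gy, -0.05, -0.06 and -0.09 after 7.4 Gy and -0.08, -0.10 and -0.19 for both. Leaving out 1 animal turned the sign in uncalled differences: C1QA (-0.02 to 0.31) and C1QC probe 2 (-0.23 to 0.20) on day 4 and F13A1 on day 7 (-0.33 to 0.33) after 6.7 Gy, C1QA (-0.12 to 0.00) and C1QC probe 1 (-0.17 to 0.06) on day 7 after 7.4 Gy, F13A1 between doses on day 4 (-0.46 to 0.11), and on day 12 CD14 after 6.7 Gy (-0.14 to 0.67) and C1QA after 7.4 Gy (-0.22 to 0.28).

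Same-numbered animals of different groups did not deviate together (r over 0.1 in 16 of 62 pairs), so the numbers do not pair them. With a replicate block C1QA on day 12 after 7.4 Gy was -0.01, the counts of altered probes were 1 and 2 on day 4 after 6.7 and 7.4 Gy, and no count moved.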

Other observations

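The genes whose signal was most like the mean of C1QA and C1QC over the 24 arrays, among 14180 genes, were LOC100424180 (Pearson r = 0.88), FAF2 (r = 0.86) and LOC100428801 (r = 0.83), and with group means removed 0.74, 0.75 and 0.62. Those most like CD14, a gene added to this search after its values were seen, were SPON1 (r = 0.87), LOC722136 (r = 0.85) and PLTP (r = 0.84). These are descriptions over arrays that share scaling and group differences.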
